A study of Danio rerio with 20 samples.

Results

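Whole zebrafish larvae raised in a mixture of persistent organic pollutants at 10 times the level in human blood (POP10) were set against larvae raised in the solvent alone (Control). The comparison used 8 of the 20 libraries of the series, 4 POP10 and 4 Control, chosen by their treatment labels. POP10 larvae were AB wild type fish that received the low concentration of the mixture, which was modelled on chemicals measured in Scandinavian blood, between 6 and 96 hours post fertilization (hpf) and were collected at 96 hpf. Control larvae were AB wild type fish of the same age that received 0.1% DMSO over the same hours; the solvent level is stated for Control only. The other groups were POP70 (the same mixture at 70 times blood levels) and PFOS10 and PFOS70 (perfluorooctanesulfonic acid alone at the amounts it has in the 2 mixtures), each with 4 libraries. Each library is a pool of 10 whole larvae. Whether the pools of a group were taken from different clutches is not in the labels; the p-values therefore measure only how much these pools varied, which may be technical. The study's title names calcium signalling and the locomotor response of exposed larvae as its subject.

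Persistent organic pollutants are fat-soluble or protein-binding chemicals that break down slowly and build up in animals. Several of the chlorinated and brominated members bind the aryl hydrocarbon receptor or the pregnane X receptor, which switch on detoxifying enzymes, and PFOS is a ligand of fatty acid receptors such as the PPARs. At this age a larva has a beating heart, working muscle and retina, a liver that secretes plasma proteins and a stress axis that makes cortisol, so a whole-body library mixes the RNA of all of these tissues. In such bulk samples, fewer cells of a type and less RNA per cell cannot be told apart.

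Values are the deposited log2 RPM, reads scaled to a library of 1000000 reads, with 1 row per gene, and differences are POP10 minus Control on that log2 scale. Of 22851 genes, 19289 passed a filter of at least 0 log2 RPM in at least 4 of the 20 libraries. The POP10 libraries held 8931619 to 10339777 reads and the Control libraries 10144607 to 10945748, so POP10 libraries were shallower on average (exact permutation test, two-sided, p = 0.0571, and 0.171 after adjustment over the 6 library measures compared; the smallest p that 4 against 4 allows is 0.0286). Correlations between libraries were 0.983 to 0.988 within POP10 and 0.981 to 0.986 within Control. On the second principal component of all 20 libraries, POP10 lay at -18.7 to -1.31 and Control at 1.67 to 19.9. It was the only measure of the 6 to separate the groups (same exact permutation test, p = 0.0286, and 0.171 after adjustment). Control replicate 3 lay at 21.9 on the first principal component of all 20 libraries and Control replicate 4 at 19.9 on the second, each the highest of the 8 libraries. For most lists, counts of members are therefore followed by their counts after dropping 1 of the 8 libraries. In those fits the share of all genes at an unadjusted p under 0.05 ranged from 2.80% to 6.38% higher and from 2.16% to 6.31% lower. Markers of 9 tissues were read in all 8 libraries, the lowest value being 2.33 log2 RPM for the heart gene myl7.

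No gene passed an adjusted p of 0.05 in limma's moderated test over all 20 libraries (0 of 19289, 0.0%), and the smallest adjusted p was 0.51. Without adjustment, 1857 genes had a p under 0.05, of which 855 (4.43% of those tested) were higher in POP10 larvae and 1002 (5.19%) lower. The POP10 and Control values did not overlap for 740 higher genes (3.84%) and 598 lower genes (3.1%), together 6.94%. Counts of list members below are to be read beside these shares of all genes. The count at that p was 1080 without POP10 replicate 1, 1122 without POP10 replicate 2 and 958 without Control replicate 3. The median difference of all genes was 0.01, and 77 genes were higher and 13 lower by 1 or more on the log2 scale. A test on the reads recovered from the table (limma's voom) also called no gene and gave 1943 genes at an unadjusted p under 0.05. For every gene named in the text, the adjusted p was 0.51 or above unless another setting is given, so the values that follow are descriptions of genes and groups that did not pass the correction.

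The largest higher value of the comparison, and several others among the largest, belonged to genes of heart muscle, whose contraction is driven by heart forms of myosin and troponin. The gene for the myosin regulatory light chain of the heart, myl7, had 4.91, 4.69, 4.55 and 3.81 log2 RPM in POP10 libraries, against 2.94, 2.92, 2.66 and 2.33 in Control libraries. The lowest POP10 value stood above the highest Control value. Another myosin light chain gene, cmlc1, had 3.67, 3.13, 3.51 and 2.78 log2 RPM in POP10 libraries, against 1.25, 1.68, 1.60 and 1.36 in Control libraries. A heart troponin C gene, tnnc1a, the calcium sensor of the thin filament, had 2.04, 1.70, 1.65 and 1.27 log2 RPM in POP10 libraries, against -0.87, -0.13, -0.28 and -0.76 in Control libraries. These last values rest on 25 to 41 reads per POP10 library and 6 to 10 reads per Control library. The myosin heavy chain gene myh7l had 4.45, 4.14, 4.41 and 3.92 log2 RPM in POP10 libraries, against 2.25, 2.76, 3.06 and 2.77 in Control libraries. All 4 of these genes separated the groups completely. For myh7l absence of overlap was part of a rule that named it, and cmlc1 and tnnc1a were chosen after their values were seen.

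On the GRCz11 build, the transcripts lie on chromosome 8 from 40457107 to 40464935 (myl7), chromosome 5 from 64167620 to 64168415 (cmlc1) and chromosome 2 from 24274293 to 24289726 (myh7l), all on the minus strand, and on chromosome 23 from 4890693 to 4895876 on the plus strand (tnnc1a). The differences were 1.78 ± 0.51 (SE) for myl7, a 3.43-fold higher level, 1.80 ± 0.60 for cmlc1, 2.17 ± 0.70 for tnnc1a and 1.52 ± 0.36 for myh7l. With the 20 libraries in one fit, their limma adjusted p was 0.51 each. When the 8 POP10 and Control libraries were fitted alone, these were the only 4 genes to pass, with limma adjusted p of 0.0283 for myl7, 0.0241 for cmlc1, 0.0356 for tnnc1a and 0.0241 for myh7l. The spread of these genes was wider in the other groups. For myl7 the SD was 1.21 in POP70, 0.98 in PFOS10 and 0.88 in PFOS70 libraries, beside 0.48 in POP10 and 0.29 in Control libraries. For tnnc1a it was 1.31 in POP70, 1.63 in PFOS10 and 1.26 in PFOS70 libraries, beside 0.31 in POP10 and 0.36 in Control libraries. The fit of all 20 libraries pools these spreads, and the fit of the 8 libraries does not use them. The myl7 mean was 4.49 log2 RPM in POP10, 2.71 in Control, 4.01 in POP70, 1.34 in PFOS10 and 3.93 in PFOS70 libraries. For tnnc1a the means were 1.66, -0.51, 1.40, -1.26 and 1.19 in the same order. A mean above that of Control was thus not particular to POP10 in these genes.

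The gene for atrial natriuretic peptide, nppa, had 2.49, 2.72, 1.74 and 1.49 log2 RPM in POP10 libraries, against 0.25, 0.25, 0.01 and 0.36 in Control libraries. That is 29 to 59 reads per POP10 library and 11 to 13 per Control library, a difference of 1.89 ± 0.68 (SE). The gene for heart troponin T, tnnt2a, had 3.65, 3.48, 3.60 and 3.06 log2 RPM in POP10 libraries, against 2.82, 2.89, 2.20 and 2.24 in Control libraries, again without overlap. Both genes were chosen after their values were seen, and not every heart gene separated the groups. The calcium pump gene atp2a2a averaged 7.61 ± 0.13 log2 RPM in POP10 and 7.70 ± 0.11 in Control larvae, and the potassium channel gene kcnh6a averaged 3.75 ± 0.14 in POP10 and 3.91 ± 0.11 in Control larvae (SD, n = 4 each).

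Of 33 listed heart muscle genes 25 were tested, and 20 were higher and 5 lower in POP10, with a median difference of 0.30 beside 0.01 over all genes. An unadjusted p under 0.05 was reached by 10 members, all higher, and 8 members did not overlap, all higher. Over all genes, 4.43% were higher at that p and 3.84% were higher without overlap. The count at that p was 8 to 12 with 1 library left out, where 2.80% to 6.38% of all genes were higher. The median deviation of the list from the Control mean was 0.56, 0.54, 0.29 and 0.05 in POP10 libraries. In Control libraries it was 0.04, 0.10, -0.05 and -0.07, so POP10 replicate 4 lay below Control replicate 2. The plot of heart genes shows each library.

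**Figure D1:**
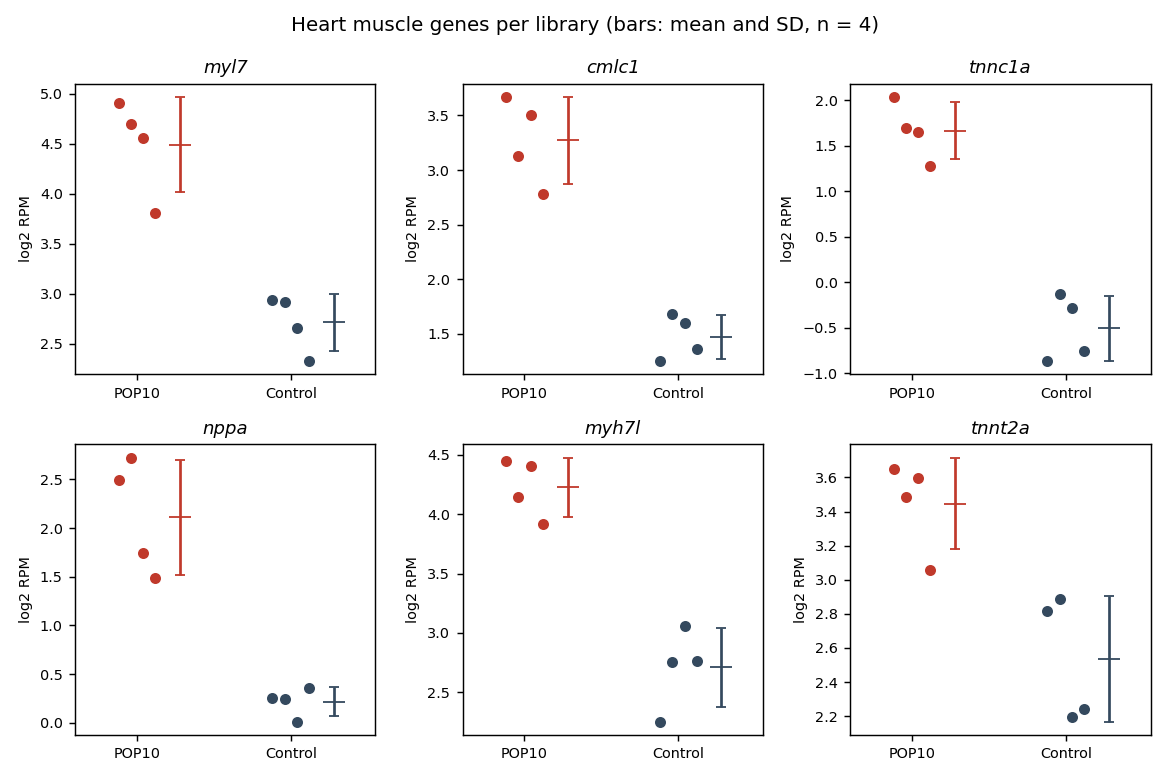
Levels of 6 heart muscle genes in log2 RPM (y axis) in each POP10 and Control library (points), with the mean and SD of 4 libraries (bars). In all 6 genes every POP10 library lies above every Control library, and POP10 replicate 4 is the lowest POP10 library in all 6. The genes cmlc1, tnnc1a, nppa and tnnt2a were chosen after their values were seen.

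Genes for proteins of the cytosolic ribosome, the machine that translates mRNA, differed little in size but all in one direction. All 82 tested members of 86 listed were higher in POP10 larvae, by 0.01 to 0.37, with a median of 0.21. Of these, 53 had an unadjusted p under 0.05 and 70 did not overlap. Over all genes, 4.43% were higher at that p and 3.84% were higher without overlap. The large-subunit gene rpl37 had 10.28, 10.18, 10.16 and 10.21 log2 RPM in POP10 libraries, against 9.94, 9.95, 9.66 and 9.79 in Control libraries. Another gene of that subunit, rpl36, averaged 10.25 ± 0.06 log2 RPM in POP10 and 9.91 ± 0.10 in Control larvae (SD, n = 4 each). RPL41 averaged 11.64 ± 0.05 log2 RPM in POP10 and 11.31 ± 0.12 in Control larvae, a 1.26-fold difference. With 1 library left out, 26 to 57 members had an unadjusted p under 0.05: 26 without Control replicate 3, where 2.80% of all genes were higher at that p, 32 without POP10 replicate 1, where 2.87% were, and 34 without Control replicate 4, where 4.39% were. Quantile normalization gave a median of 0.11. Genes of the mitochondrial ribosome had a median difference of 0.03, with 1 of 74 higher at that p and 0 lower. The sources used here do not state how reads matching several places were counted, which matters for genes with near-identical copies.

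**Figure D2:**
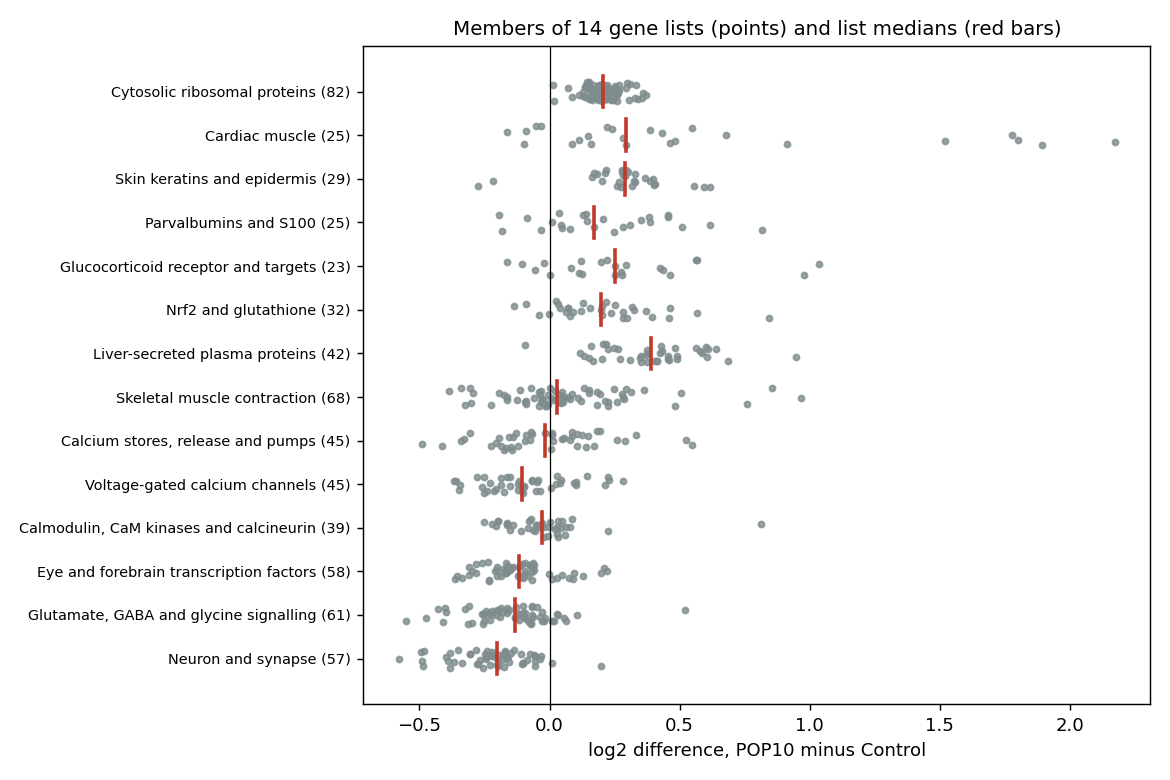
Log2 differences, POP10 minus Control (x axis), of the tested members of 14 gene lists (points; number tested in brackets) with the list medians (red bars). The ribosomal proteins sit in a narrow band above 0 with a median of 0.21, the heart genes reach 2.17, and the neuron and synapse genes lie mostly below 0 with a median of -0.20.

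Targets of the glucocorticoid receptor, the receptor through which cortisol acts on transcription, were mostly higher in POP10 larvae, with Control replicate 4 among or above the POP10 libraries. The gene of the receptor's co-chaperone and feedback inhibitor, fkbp5, had 9.12, 8.72, 8.79 and 8.65 log2 RPM in POP10 libraries, against 7.26, 7.83, 7.46 and 8.82 in Control libraries. Control replicate 4 lay within the POP10 values and the other 3 Control libraries below them. The difference was 0.98 ± 0.26 (SE), a 1.97-fold higher level. The clock gene per1a had 6.32, 6.11, 6.18 and 6.33 log2 RPM in POP10 libraries, against 5.11, 5.84, 5.47 and 6.25 in Control libraries. For klf9, a Krüppel-like factor that glucocorticoids induce, the values were 5.84, 5.60, 5.20 and 5.21 log2 RPM in POP10 libraries, against 4.64, 4.98, 4.58 and 5.95 in Control libraries. Control replicate 4 was the highest of the 8 libraries in klf9. It was highest too in pck1, which codes for an enzyme of glucose synthesis and differed by 0.22 ± 0.46 (SE), with a 95% interval of -0.73 to 1.18.

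Of 23 tested genes in this list, 19 were higher and 4 lower, with a median of 0.25. At an unadjusted p under 0.05, 6 were higher and 0 lower, where 4.43% of all genes were higher and 5.19% lower. The higher members numbered 10 without Control replicate 4, where 4.39% of all genes were higher. They numbered 3 without Control replicate 3 (2.80% of all genes) or POP10 replicate 1 (2.87%). Leaving out Control replicate 4 also gave the only calls of any fit that left out 1 library: cyp24a1 at an adjusted p of 0.00784, fkbp5 at 0.0318 and pfkfb4b at 0.0318 in limma, all 3 higher in POP10. The gene cyp24a1, for the enzyme that breaks down active vitamin D, had 6.70, 6.17, 6.16 and 6.32 log2 RPM in POP10 libraries, against 4.56, 4.97, 4.62 and 7.01 in Control libraries. Its difference was 1.05 ± 0.37 (SE) with all 4 Control libraries and 1.62 without Control replicate 4. For pfkfb4b, which codes for a regulator of glycolysis, the values were 7.39, 7.25, 7.39 and 7.05 log2 RPM in POP10 libraries, against 6.32, 6.76, 6.47 and 7.30 in Control libraries. The same Control library was the highest of its group in all 6 genes of the plot of these values. Those genes were picked for the plot to show where 1 Control library stood apart, so that count is no separate result. The part of that library in the differences was not tested beyond leaving it out.

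**Figure D3:**
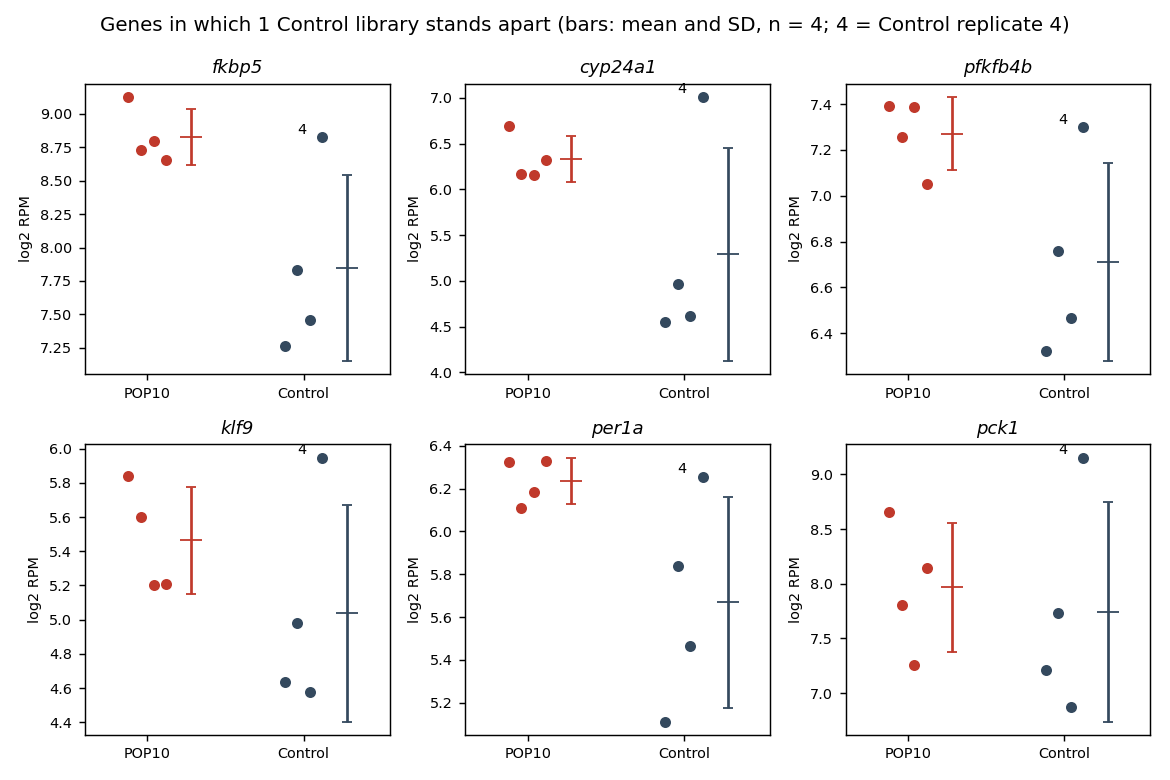
Levels of 6 genes in log2 RPM (y axis) in each POP10 and Control library (points), with the mean and SD of 4 libraries (bars); the digit 4 marks Control replicate 4. In all 6 genes, picked to show this library, Control replicate 4 is the highest Control library, and in cyp24a1, at 7.01, it lies above all POP10 libraries.

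Genes of the stress axis and steroid synthesis included the smallest unadjusted p of any gene with a symbol other than a clone name (hsd3b1, 6.17e-05, limma). The gene for 3-beta-hydroxysteroid dehydrogenase, hsd3b1, an enzyme on the way to cortisol and sex steroids, had 1.44, 0.65, 0.91 and 0.21 log2 RPM in POP10 libraries, against -1.45, -0.87, -1.13 and -1.34 in Control libraries. The groups did not overlap, but these are 12 to 27 reads per POP10 library and 4 to 6 per Control library. The gene cyp21a2, for another enzyme of cortisol synthesis, averaged 1.47 ± 0.46 log2 RPM in POP10 and 0.79 ± 0.29 in Control larvae (SD, n = 4 each), with overlap. Of 15 tested genes 11 were higher and 4 lower. At an unadjusted p under 0.05, where 4.43% of all genes were higher, 2 were higher (1 without POP10 replicate 3 or Control replicate 2). A further 10 listed genes had no row or too few reads to be tested.

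Clock genes showed no common direction: 18 of 44 were higher and 26 lower. At that p 5 were higher and 1 lower, where 4.43% of all genes were higher and 5.19% lower. With 1 library left out, 4 to 6 were higher and 0 to 2 lower. The repressor gene ciarta had 7.35, 7.25, 7.41 and 7.43 log2 RPM in POP10 libraries, against 6.92, 7.07, 7.13 and 7.17 in Control libraries, without overlap. Absence of overlap was part of a rule that named this gene. For the nuclear receptor gene nr1d2a the difference was 0.59 ± 0.16 (SE), but Control replicate 4, at 8.30 log2 RPM, lay above POP10 replicate 2, at 8.24. The activator gene arntl1b had a difference of -0.23 ± 0.09, with overlap. The labels give the age at collection but no clock time for each pool.

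Among genes outside these lists, arrdc3b, which codes for an arrestin-domain protein, had 6.32, 6.41, 6.92 and 6.37 log2 RPM in POP10 libraries, against 4.99, 5.39, 6.04 and 5.72 in Control libraries. The lowest POP10 library exceeded the highest Control library, and the difference was 0.97 ± 0.24 (SE), a 1.96-fold higher level. The gene lonrf1l had 6.59, 6.70, 6.67 and 6.58 log2 RPM in POP10 libraries, against 6.33, 6.20, 6.25 and 6.45 in Control libraries, a smaller difference with less spread. For pik3r3a, a regulatory subunit gene of phosphoinositide 3-kinase, the values were 6.31, 6.15, 6.30 and 6.00 log2 RPM in POP10 libraries, against 5.08, 5.61, 5.41 and 5.97 in Control libraries. Control replicate 4 came just below the lowest POP10 library in that gene. For the genes of this paragraph and the next, absence of overlap was part of the rule that chose them.

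The protein kinase C delta gene prkcdb had 6.08, 5.86, 5.94 and 5.64 log2 RPM in POP10 libraries, against 5.40, 5.41, 5.31 and 5.32 in Control libraries. Also higher without overlap were kitlga (0.45 ± 0.11, SE), for a Kit ligand that pigment cells depend on, and zcrb1 (0.44 ± 0.11), for an RNA-binding protein of the minor spliceosome. The secreted mucin gene muc5.1 averaged 5.64 ± 0.15 log2 RPM in POP10 and 5.03 ± 0.24 in Control larvae, and dhrs13a.2, for a short-chain dehydrogenase, averaged 5.60 ± 0.33 in POP10 and 4.97 ± 0.12 in Control larvae (SD, n = 4 each).

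Genes of the skin were higher in POP10 larvae in 27 of 29 tested members, with a median of 0.29. At an unadjusted p under 0.05 there were 5 higher and 0 lower, and 12 members did not overlap, all higher. The shares of all genes were 4.43% higher at that p and 3.84% higher without overlap. Ictacalcin (icn), a calcium-binding S100 protein of fish epithelia, had 8.50, 8.65, 8.80 and 8.29 log2 RPM in POP10 libraries, against 7.93, 8.24, 7.97 and 7.62 in Control libraries. The keratin gene krt1-19d had 6.48, 6.65, 6.69 and 6.27 log2 RPM in POP10 libraries, against 5.98, 6.25, 5.71 and 5.76 in Control libraries. Both genes separated the groups, which for icn was part of a rule that named it. So did krt4, the skin gene with the highest values, by a narrow margin (0.27 ± 0.21, SE), while krt96 overlapped (-0.27 ± 0.22). The counts at that p were 1 without POP10 replicate 2 or Control replicate 3 and 2 without POP10 replicate 3, Control replicate 1 or Control replicate 4. When the 8 libraries were fitted alone 19 members were higher at that p, where 6.79% of all genes were.

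Ionocytes, the skin cells that exchange ions and ammonia with the water, had 18 of 29 tested genes higher and 11 lower. At an unadjusted p under 0.05 there were 3 higher and 1 lower, where 4.43% of all genes were higher and 5.19% lower. The higher members numbered 1 without POP10 replicate 1 or Control replicate 3 and 9 without POP10 replicate 4, where 6.38% of all genes were higher. The ammonia channel gene rhcga had 7.77, 6.36, 6.68 and 6.38 log2 RPM in POP10 libraries, against 5.45, 5.93, 5.16 and 6.42 in Control libraries, and Control replicate 4 overlapped the POP10 values. The difference of 1.06 ± 0.29 (SE) was a 2.08-fold higher level. The gcm2 gene, for a transcription factor of hydrogen-ion secreting ionocytes, differed by 0.62 ± 0.27. Collagen and fin fold genes were higher in 25 of 37 cases, among them col10a1a of forming bone and cartilage (0.74 ± 0.28) and col6a3 (0.42 ± 0.16), with 4 higher and 1 lower at an unadjusted p under 0.05. The higher ones numbered 0 without POP10 replicate 1, 2 without Control replicate 3 and 11 without POP10 replicate 4.

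Neuronal genes lay on the other side. Of 57 tested genes of neurons and synapses, 55 were lower and 2 higher in POP10 larvae, with a median of -0.20, where 47.2% of all genes were lower. At an unadjusted p under 0.05 there were 19 lower and 0 higher, and 12 members did not overlap, all lower. The shares of all genes were 5.19% lower at that p and 3.1% lower without overlap. Gephyrin b (gphnb), the scaffold of inhibitory synapses, had 6.66, 6.64, 6.69 and 6.89 log2 RPM in POP10 libraries, against 7.09, 7.02, 7.21 and 7.01 in Control libraries. The groups did not overlap. The synaptic adhesion gene nrxn3a differed by -0.40 ± 0.15 (SE) and overlapped, with 6.99 log2 RPM in POP10 replicate 4 and 6.92 in Control replicate 2.

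With 1 library left out, the lower neuronal genes at that p numbered 4 to 25: 4 without Control replicate 3, where 2.16% of all genes were lower, 4 without POP10 replicate 2, where 2.68% were, and 6 without POP10 replicate 1, where 2.73% were. The median deviation of the list from the Control mean was -0.23, -0.23, -0.19 and -0.10 in the POP10 libraries, against -0.02, -0.08, 0.14 and -0.01 in the Control libraries, so all 4 POP10 libraries were lower than all 4 Control libraries and Control replicate 3 was the highest.

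Genes for glutamate, GABA and glycine signalling were lower in 53 of 61 cases, with a median of -0.13. At an unadjusted p under 0.05, 11 were lower and 0 higher, where 5.19% of all genes were lower. The lower ones numbered 5 without POP10 replicate 1, 6 without Control replicate 3 and 7 without POP10 replicate 2 or Control replicate 4. The median deviation of the list from the Control mean was -0.079, -0.103, -0.197 and -0.142 in POP10 libraries. In Control libraries it was -0.090, -0.002, 0.075 and 0.038, so POP10 replicate 1 lay above Control replicate 1. The NMDA receptor subunit gene grin2ca differed by -0.47 ± 0.17 (SE) and the kainate receptor subunit gene grik4 by -0.40 ± 0.14. The GABA-synthesizing enzyme gene gad1b averaged 8.84 ± 0.19 log2 RPM in POP10 and 9.06 ± 0.06 in Control larvae (SD, n = 4 each), a difference with a 95% interval of -0.52 to 0.07.

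Eye and forebrain transcription factors were lower in 48 of 58 cases, with a median of -0.12. The median deviation of the list from the Control mean was -0.207, -0.127, -0.042 and -0.047 in POP10 libraries. In Control libraries it was -0.004, 0.025, 0.119 and -0.130, so Control replicate 4 lay below POP10 replicates 2, 3 and 4. At that p 11 were lower and 0 higher, and the lower ones numbered 4 without Control replicate 3, 6 without Control replicate 1 and 15 without Control replicate 4. The homeobox gene six3b, needed for forebrain and eye formation, had 6.03, 6.08, 5.97 and 6.09 log2 RPM in POP10 libraries, against 6.41, 6.42, 6.35 and 6.24 in Control libraries. The bHLH gene bhlhe22, active in retinal and other neurons, had 7.01, 7.13, 7.09 and 7.04 log2 RPM in POP10 libraries, against 7.33, 7.38, 7.45 and 7.24 in Control libraries. Neither gene overlapped between the groups, which for six3b was part of a rule that named it. Of 67 opsin and phototransduction genes 27 were higher and 40 lower, with a median of -0.02. At that p 3 were higher, near the 4.43% of all genes, and 0 were lower, where 5.19% of all genes were. Without POP10 replicate 4, 6 were lower, where 6.31% of all genes were. The green cone opsin gene opn1mw2 had 5.02, 4.32, 5.15 and 4.60 log2 RPM in POP10 libraries, against 3.92, 4.09, 4.00 and 4.17 in Control libraries. The red cone opsin gene opn1lw2 differed by 0.25 ± 0.09 (SE). Opsin genes of 1 colour are close copies of each other, so reads may be split between them.

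Lower genes outside the lists given so far included several of the nervous system. The orphan receptor gene gpr22b had 4.48, 4.16, 4.19 and 4.46 log2 RPM in POP10 libraries, against 4.85, 4.70, 4.97 and 4.73 in Control libraries. Netrin g1 a (ntng1a), an axonal adhesion protein, had 4.68, 4.57, 4.76 and 4.93 log2 RPM in POP10 libraries, against 5.10, 5.21, 5.26 and 5.25 in Control libraries. The gap junction gene gjd1a, whose connexin forms electrical synapses, had 5.37, 5.27, 5.28 and 5.25 log2 RPM in POP10 libraries, against 5.57, 5.62, 5.69 and 5.64 in Control libraries. All 3 were without overlap. So were SYNPR (-0.56 ± 0.18, SE), for the vesicle protein synaptoporin, and olig2 (-0.33 ± 0.09), for a factor of motor neuron and oligodendrocyte precursors. Absence of overlap was part of the rule that chose these genes. Myelin and glia genes, a list that holds olig2, were higher in 16 of 27 cases, with a median of 0.02. Her and neural bHLH genes, which hold it too, were lower in 35 of 51 cases, with a median of -0.04.

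The gene abrab, for an actin-binding protein of striated muscle, had 3.88, 4.43, 4.17 and 4.13 log2 RPM in POP10 libraries, against 4.56, 4.60, 4.73 and 4.85 in Control libraries. Regulators of transcription among the lower genes were nab1a (-0.48 ± 0.13, SE), a co-repressor of EGR factors, mepce (-0.31 ± 0.08), which caps and holds 7SK RNA, ep300a (-0.24 ± 0.07), a histone acetyltransferase, and irx4a (-0.48 ± 0.14), an Iroquois homeobox factor. Other lower genes were tmcc2 (-0.45 ± 0.14, SE), fgd1 (-0.43 ± 0.14), for an exchange factor of Cdc42, and mgat3b (-0.42 ± 0.13), for an N-glycan branching enzyme. None of these genes overlapped between the groups, which was part of the rule that chose them.

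Calcium signalling works through channels that let calcium into the cytosol, pumps that remove it and proteins that bind it. Among 45 tested genes of calcium stores, release and pumps, 22 were higher and 23 lower, with a median of -0.02. At an unadjusted p under 0.05 there were 1 higher and 7 lower, where 4.43% of all genes were higher and 5.19% lower. With 1 library left out 3 to 7 were lower, the fewest without Control replicate 1. The plasma membrane pump gene atp2b3a, prominent in neurons, had 8.04, 8.06, 8.13 and 8.16 log2 RPM in POP10 libraries, against 8.35, 8.31, 8.55 and 8.50 in Control libraries. Its paralogue atp2b3b had 7.63, 7.57, 7.81 and 8.16 log2 RPM in POP10 libraries, against 8.22, 7.90, 8.32 and 8.37 in Control libraries. The first gene separated the groups and the other did not.

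The fast muscle reticulum pump gene atp2a1 had 12.75, 12.89, 12.75 and 12.77 log2 RPM in POP10 libraries, against 13.26, 12.89, 13.12 and 13.09 in Control libraries. The groups met at 12.89, in replicate 2 of each, without overlap. The ryanodine receptor gene ryr1b, the release channel of skeletal muscle, differed by -0.22 ± 0.09 (SE). The voltage sensor of the same tissue, cacna1sb, differed by -0.16 ± 0.11, with a 95% interval of -0.39 to 0.06. The higher member was casq2, for the calcium-storing calsequestrin of heart and slow muscle, at 0.26 ± 0.12.

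Voltage-gated calcium channel subunits were lower in 32 of 45 cases, with a median of -0.10. At that p 4 were lower and 1 higher, where 5.19% of all genes were lower and 4.43% higher. The lower ones numbered 1 without POP10 replicate 1 or Control replicate 3 and 2 without POP10 replicate 3, and the median was -0.05 without POP10 replicate 4 and -0.16 without Control replicate 1. They included cacng3b (-0.36 ± 0.13, SE), for an AMPA receptor regulatory subunit, and cacnb4b (-0.22 ± 0.08), for a channel beta subunit. The higher one was the muscle gamma subunit gene cacng1a (0.21 ± 0.09). In 39 genes of calmodulin, CaM kinases and calcineurin the median was -0.03, with 5 lower and 0 higher at that p, and 1 to 4 lower with 1 library left out, the fewest without POP10 replicate 2. The CaM kinase II genes camk2g1 and camk2b1 differed by -0.20 ± 0.08 and -0.16 ± 0.07.

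Parvalbumins and S100 proteins, small buffers and sensors of calcium, were higher in 21 of 25 cases, with a median of 0.17. At an unadjusted p under 0.05 there were 9 higher and 0 lower, where 4.43% of all genes were higher. The count was 4 without Control replicate 3 or 4 and 5 without POP10 replicate 2. The parvalbumin gene pvalb4 had 9.71, 9.63, 9.45 and 9.56 log2 RPM in POP10 libraries, against 9.49, 9.28, 9.24 and 9.23 in Control libraries. The highest Control library, replicate 1, stood above the lowest POP10 library. The S100 gene s100a10b differed by 0.35 ± 0.12 (SE), and another parvalbumin gene, pvalb6, by -0.18 ± 0.11. The icn gene of the skin belongs to the S100 family too.

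Skeletal muscle genes lay in both directions: 38 of 68 were higher and 30 lower, with a median of 0.03. At that p 10 were higher and 6 lower, where 4.43% of all genes were higher and 5.19% lower. With 1 library left out 7 to 14 were higher and 1 to 8 lower, with 7 higher without POP10 replicate 1 and 1 lower without Control replicate 1. Tropomyosin 2 (tpm2) differed by 0.36 ± 0.12 (SE) and the troponin I gene tnni2b.1 by 0.76 ± 0.25. The gene jph1a, for the junctophilin that ties the surface membrane to the calcium store, differed by -0.39 ± 0.12.

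Detoxifying enzymes driven by the aryl hydrocarbon receptor were examined because chlorinated members of such mixtures can activate it. The usual marker cyp1a had 4.06, 3.40, 3.44 and 2.92 log2 RPM in POP10 libraries, against 2.76, 3.28, 2.82 and 3.73 in Control libraries. The groups overlapped, and the difference of 0.31 ± 0.29 (SE) had a 95% interval of -0.30 to 0.91. A second target, cyp1b1, differed by -0.07 ± 0.17, with an interval of -0.43 to 0.29. The receptor gene ahr2 differed by 0.37 ± 0.14 and the partner gene arnt2, which is also active in neurons, by -0.24 ± 0.10. Of 15 tested members 9 were higher and 6 lower. At an unadjusted p under 0.05 there was 1 each, where 4.43% of all genes were higher and 5.19% lower.

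Targets and relatives of the pregnane X receptor were higher in 33 of 46 cases, with a median of 0.14. At that p 2 were higher and 1 lower, shares no larger than the 4.43% higher and 5.19% lower of all genes. The median was 0.05 without POP10 replicate 1 and 0.03 without Control replicate 3, and 0 were higher at that p without POP10 replicate 2 or Control replicate 3. The cytochrome gene cyp3a65 differed by 0.18 ± 0.51 (SE), with an interval of -0.89 to 1.24; its Control libraries spanned 4.37 to 6.53 log2 RPM and its POP70 libraries 4.96 to 7.23. The sulfotransferase gene sult2st1 differed by 0.49 ± 0.20. The vitamin D 25-hydroxylase gene cyp2r1 had 1.49, 1.84, 1.06 and 0.44 log2 RPM in POP10 libraries, against 1.76, 1.80, 2.22 and 3.10 in Control libraries, a difference of -1.01 ± 0.33. Its reads numbered 14 to 32 per POP10 library and 37 to 87 per Control library.

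Nrf2 and glutathione genes, which answer oxidative stress, were higher in 28 of 32 cases, with a median of 0.20. At that p 5 were higher and 0 lower, where 4.43% of all genes were higher. The count was 2 without POP10 replicate 1 or 3 or Control replicate 3 and 10 without Control replicate 2, and the median was 0.08 without Control replicate 3. The gene of the factor itself, nfe2l2a, had 7.29, 7.25, 7.30 and 7.10 log2 RPM in POP10 libraries, against 6.71, 6.95, 6.39 and 7.03 in Control libraries, without overlap. Thioredoxin (txn) differed by 0.25 ± 0.11 (SE).

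Plasma protein genes of the liver were spread widely over the Control libraries. Of 42 plasma protein genes 41 were higher in POP10, with a median of 0.39, yet none had an unadjusted p under 0.05 and none separated the groups. The transferrin gene tfa had 8.53, 8.79, 7.94 and 7.76 log2 RPM in POP10 libraries, against 7.36, 7.10, 6.96 and 8.86 in Control libraries. The median deviation of the list from the Control mean was 0.65, 0.47, -0.03 and 0.46 in POP10 libraries, against -0.15, -0.51, -0.49 and 1.25 in Control libraries. Control replicate 4 was thus the highest of the 8 libraries and the other 3 Control libraries the lowest. Without it the median was 0.80 and 25 members were higher at that p; without Control replicate 2 or 3 it was 0.20 and 0.21 and the count 0 each. The retinol carrier gene rbp4 differed by 0.23 ± 0.15 (SE).

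Apolipoprotein genes were higher in 18 of 19 cases, with a median of 0.22, and 0 members passed that p. The median was 0.08 without POP10 replicate 1 or Control replicate 3. The gene apoa1b differed by 0.34 ± 0.38 (SE). In sterol and fatty acid synthesis 19 genes were higher and 19 lower. At that p 3 were lower and 0 higher, and 1 to 5 were lower with 1 library left out. The 3 lower members are near the 5.19% of all genes that were lower. Fatty acid synthase (fasn) had 6.99, 7.01, 7.23 and 7.41 log2 RPM in POP10 libraries, against 7.50, 7.48, 7.49 and 7.62 in Control libraries, without overlap. Acetyl-CoA carboxylase (acaca), the enzyme before it in the same pathway, differed by -0.23 ± 0.10. Among 40 tested PPAR targets and fatty acid oxidation genes, 1 was higher and 1 lower at that p, with a median of 0.04. Both counts are below the shares of all genes, 4.43% higher and 5.19% lower. The PPAR target angptl4, for an inhibitor of lipoprotein lipase, differed by 0.21 ± 0.09. For ppargc1a, which codes for a co-activator of mitochondrial genes, the difference was -0.30 ± 0.13.

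Further lists are given by their members at an unadjusted p under 0.05, where 4.43% of all genes were higher and 5.19% lower. The higher members of the immediate early and splicing lists were below that share. Endocrine islet genes had 5 lower and 0 higher of 18 (2 lower without POP10 replicate 2, Control replicate 1 or Control replicate 3), among them the transcription factor genes mafa (-0.32 ± 0.10, SE) and isl1 (-0.23 ± 0.07), of which the last also marks neurons. Globin and red cell genes had 5 higher and 0 lower of 23 (1 higher without Control replicate 3, 2 without POP10 replicate 3 or Control replicate 4 and 8 without Control replicate 2), with hbbe2, an embryonic beta globin, at 0.58 ± 0.25 and the nucleotidase gene nt5c2l1 at 0.59 ± 0.21. Immediate early genes had 1 higher and 4 lower of 41 (0 to 4 higher and 3 to 6 lower with 1 library left out), with klf4 at 0.61 ± 0.23 and ier5l at -0.21 ± 0.06 and mycb at -0.33 ± 0.10. Splicing genes had 2 higher and 6 lower of 57 (13 lower without POP10 replicate 3 or Control replicate 4), with rbm5 at -0.33 ± 0.09 and the kinase gene clk4a at -0.33 ± 0.11. Vitamin D and calcium homeostasis genes had 4 higher and 3 lower of 22 (2 higher without Control replicate 1 and 1 lower without POP10 replicate 3), with spp1, for osteopontin of bone, at 1.16 ± 0.32 and stc2a, for a stanniocalcin, at -0.41 ± 0.15. The spp1 value rests on 16 to 27 reads per POP10 library and 6 to 18 per Control library. Cell cycle genes were higher in 50 of 55 cases with a median of 0.11, but the median was 0.04 without POP10 replicate 3, and the 3 members at that p, 0 without POP10 replicate 3 or Control replicate 1, are near the share of all genes.

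The plot of lists by library shows where single libraries set these values.

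**Figure D4:**
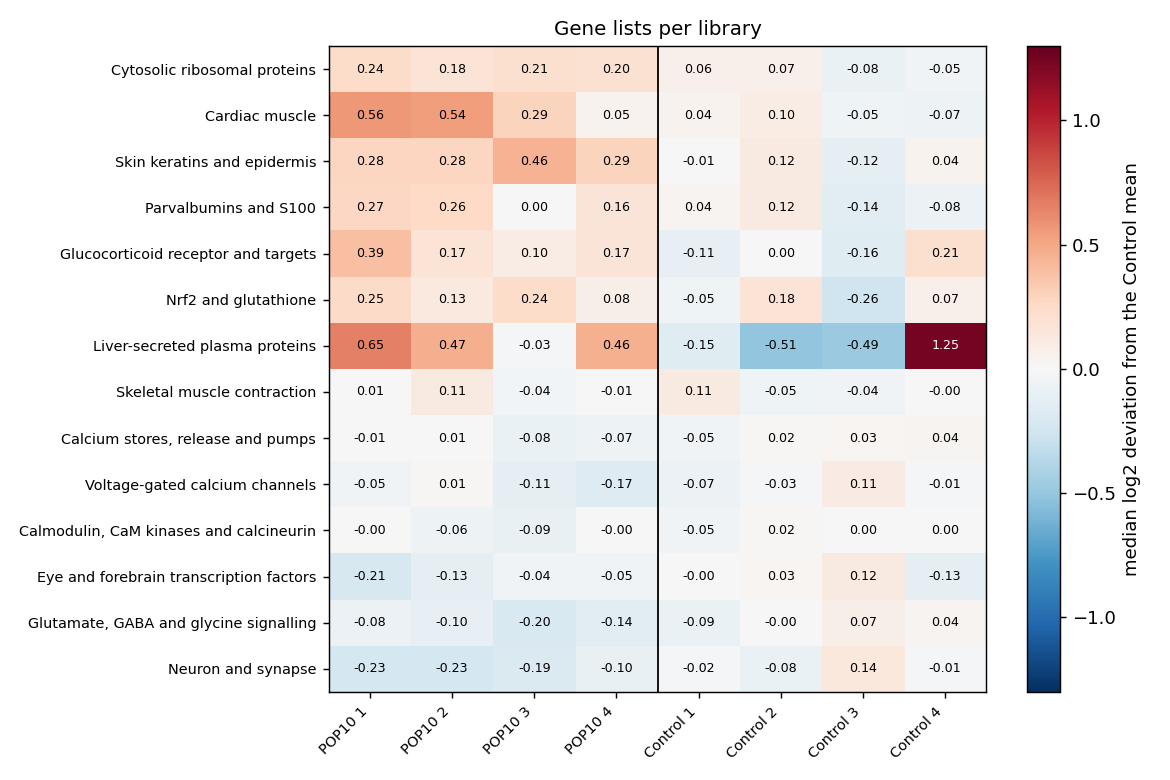
Median log2 deviation of each gene list (rows) from the mean of the Control libraries, in every POP10 and Control library (columns), coloured and printed. The ribosomal row is positive in all 4 POP10 libraries, at 0.18 to 0.24, and the liver row reaches 1.25 in Control replicate 4, the highest value of the grid.

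Against the higher level of the mixture, POP10 differed in no gene at an adjusted p of 0.05 in limma (0 of 19289, 0.0%), with 580 genes (3.01%) at an unadjusted p under 0.05. The POP10 and POP70 comparisons share the Control libraries, so their differences from Control are not independent. The genes given here were chosen after their values were seen, and a trend over the levels was not tested. The six3b gene averaged 6.35 ± 0.08 log2 RPM in Control, 6.04 ± 0.05 in POP10 and 5.82 ± 0.15 in POP70 larvae (SD, n = 4 each). The lonrf1l gene averaged 6.31 ± 0.11 in Control, 6.64 ± 0.06 in POP10 and 6.91 ± 0.14 in POP70 larvae. Both differed between POP10 and POP70 by more than the SD of either group, at 0.23 ± 0.08 (SE) for six3b and -0.28 ± 0.07 for lonrf1l, without passing the adjusted p. For hsd3b1 the order was different, with -1.20 ± 0.26 in Control, 0.80 ± 0.51 in POP10 and -0.01 ± 0.68 in POP70 larvae. The gpr22b gene averaged 4.81 ± 0.12 in Control, 4.32 ± 0.17 in POP10 and 4.44 ± 0.28 in POP70 larvae. The POP10 and POP70 values overlapped in gpr22b, hsd3b1, arrdc3b and, by a narrow margin, six3b, but not in lonrf1l and bhlhe22.

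**Figure D5:**
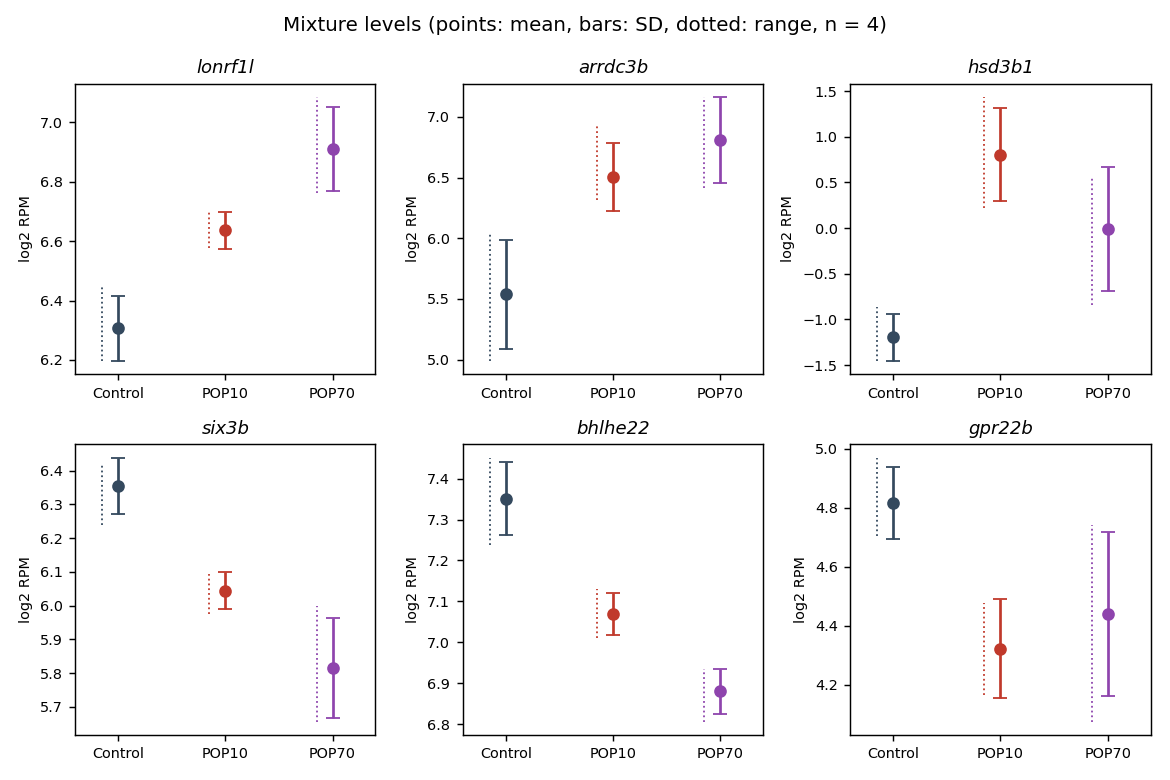
Mean levels in log2 RPM (y axis) of 6 genes in Control, POP10 and POP70 larvae, with the SD of 4 libraries (bars) and their range (dotted lines). The means of lonrf1l and arrdc3b ascend and those of six3b and bhlhe22 descend over the 3 groups, while hsd3b1 is highest and gpr22b lowest in POP10.

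Against PFOS alone at the amount of the low mixture, 6051 of 19289 genes (31.4%) passed an adjusted p of 0.05 in limma, of which 3812 (19.8%) were higher and 2239 (11.6%) lower in POP10. The PFOS10 libraries stood apart from all others, at 49.4 to 61.5 on the first principal component where no other library exceeded 21.9, and the POP10 libraries serve in this comparison and in that with Control. The klf9 gene averaged 5.46 ± 0.32 log2 RPM in POP10, 2.53 ± 0.32 in PFOS10 and 5.04 ± 0.63 in Control larvae (SD, n = 4 each), with a POP10 minus PFOS10 difference of 2.93 ± 0.27 (SE) and an adjusted p of 4.22e-06. The cyp1a gene, which overlapped between POP10 and Control, averaged 3.45 ± 0.47 in POP10, 2.14 ± 0.43 in PFOS10 and 3.15 ± 0.45 in Control larvae, so that the PFOS10 mean lay farther from the POP10 mean than the Control mean did; the POP10 minus PFOS10 adjusted p was 0.00294. The myl7 gene averaged 4.49 ± 0.48 in POP10, 1.34 ± 0.98 in PFOS10 and 2.71 ± 0.29 in Control larvae, with a POP10 minus PFOS10 adjusted p of 0.000402. The six3b gene averaged 6.04 ± 0.05 in POP10, 6.76 ± 0.13 in PFOS10 and 6.35 ± 0.08 in Control larvae, with a POP10 minus PFOS10 adjusted p of 1.83e-05. For atp2a1 the POP10 mean was 12.79 ± 0.07 and the PFOS10 mean 12.72 ± 0.22, with an adjusted p of 0.689.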

How the data were processed

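Poly(A) RNA of pooled whole larvae was sequenced. The authors deposited log2 RPM (reads scaled to a library of 1000000 reads) per transcript for all 20 libraries; per the submitters' processing notes, the tools named were Trim Galore 0.4.5, STAR 2.5.4b, DESeq2 and R 3.5.0, with the genome build GRCz11. The sources used here do not state how strand and multi-mapped reads were handled, and the library kit is described without a strand step, so overlapping and antisense genes cannot be told apart. RPM summed to 3.13 to 3.39 times that scale per library over transcripts, so reads were counted for more than 1 transcript. Each of 22851 genes was represented by its transcript of highest mean. A value of 0 reads had been written as 0.9 reads; with 1 RPM equal to 8.93 to 10.9 reads in the 8 libraries, 100% of values between 1 and 1000 reads came out whole within 0.05 reads, and voom on those reads called 0 genes.

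The test was limma 3.58.1 (R 4.3.3; lmFit, eBayes with a variance trend) on all 20 libraries with group as the only term, two-sided, Benjamini-Hochberg over 19289 genes, threshold 0.05, tested on simulated data beforehand. The deposited values are log2 RPM, and DESeq2 and edgeR were not run on the recovered reads. Genes named were the 10 of smallest p in each direction whose mean reached 3 log2 RPM and whose groups did not overlap, the 5 largest in each direction whose mean reached 5, with an unadjusted p under 0.05 and no overlap (both sets without clone-like names), 2 in each direction and the highest of each of 46 lists, and a fixed set; not all are printed. The genes cmlc1, tnnc1a, nppa, tnnt2a and pfkfb4b, and those of the plot by mixture level, were chosen after their values were seen. The members and lists were chosen with earlier results of these data known. Lists are described by counts and medians without a test. Library replicate numbers were checked for pairing: same-numbered libraries had correlations of -0.040 to 0.168 in their deviations, so they were not treated as pairs.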

Additional observations from a re-analysis of the deposited data

Results flagged for a closer look

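Within groups of 4 libraries, 12 of 210 groups examined had 1 library farther from the rest than Dixon's limit for 4 values allows, and chance gives about 5% of groups. In POP10 larvae these were arrdc3b in replicate 3 (6.92 log2 RPM, the highest), atp2a1 in replicate 2 (12.89, the highest), tpm2 in replicate 4 (8.89, the lowest) and apoa1b in replicate 3 (10.57, the lowest). In Control larvae, replicate 4 was the highest in cyp24a1 (7.01), gad1b (9.15) and fasn (7.62). Control replicate 3 was the highest in grik4 (5.11) and arnt2 (7.65) and the lowest in sult2st1 (4.58). Control replicate 2 was the lowest in cyp21a2 (0.36) and the highest in camk2b1 (8.75), where all 4 values lay within 0.03 of each other. The part of single libraries in the differences was not tested beyond leaving each out.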

How the results depend on the processing

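Of 105 named genes, only 71 were tested under the filter of 5.5 log2 RPM and 104 with the lowest-numbered transcript. Genes chosen for groups without overlap could not change sign in the 8 settings that left out 1 library. Settings that changed only the filter, the variance trend, the replicate block or the other groups fitted left each tested gene's difference as it was. No sign could change in those. Of the 105 genes, 102 kept the sign of their difference in each of the 21 settings that tested them. The exceptions were pck1 (-0.067 to 0.69 with 1 library left out, and below 0 without POP10 replicate 1 or Control replicate 3), cyp1b1 (-0.17 to 0.0071, above 0 without POP10 replicate 2 or Control replicate 3) and cyp3a65 (-0.26 to 0.46, below 0 without Control replicate 3). No gene passed with all 20 libraries fitted as reported; 1 passed without a filter, 4 with only POP10 and Control fitted, all higher, and 0 to 3 when 1 library was left out. At an unadjusted p under 0.05 there were 1857 genes, 984 under a filter of 5.5 log2 RPM, 3292 with array weights, and 958 to 2448 when 1 library was left out, the low end without Control replicate 3 (958) and POP10 replicates 1 (1080) and 2 (1122). The replicate block gave 0 calls and 2200 genes at an unadjusted p under 0.05; fitting only POP10 and Control with the replicate block, an alternative chosen after seeing the data, gave 1 call (myl7, adjusted p 0.00726) and 2962 genes, and 1 of 4 POP10 libraries correlated best with its own number. The cause of these shifts was not tested, other than fewer genes tested under the stricter filter. Of 964 list medians recomputed, 22 moved by more than the SD of the list's median deviation among libraries of a group. That limit is wide for lists that varied between libraries. The liver plasma protein median, 0.39 with all libraries and 0.80 without Control replicate 4, counted as unmoved. Settings that left the differences as they were could not move a median unless they dropped members. The median standard error was 0.13 log2, and intervals for low genes rest on few reads.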

Other observations

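Without a filter on low values, 1 gene, tor1l3, had an adjusted p of 0.0382 in limma. It had 7, 5, 9 and 7 reads in POP10 libraries, against 0, 1, 2 and 1 in Control libraries, and was below the filter of the test reported here.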
